A study of Rattus norvegicus with 939 samples.

Results

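Transcript levels were measured in primary rat hepatocytes, liver cells taken from the animal and kept in culture, after exposure to Tetracycline at 520 uM in the solvent DMSO. The 6 arrays whose compound label is Tetracycline, 3 after 0.67 d and 3 after 1 d, were compared with the 24 DMSO arrays whose description names Tetracycline, 12 at each time. These 30 arrays are part of 939 in the series, of which 826 carry 1 of 125 compounds and 113 are vehicle controls. The controls fall into a larger set of 8 and a smaller set of 4 arrays per time. All cells, treated and control, received DMSO, and only 1 dose of Tetracycline was used. Strain and age of the rats, and whether arrays with different replicate numbers came from separate animals or cultures, are not stated in the sources used here. Titles of the controls carry a dated code whose meaning is not given. Each code stands on 1 control at 0.67 d and 1 at 1 d, and it differs between replicate numbers of a set. Tetracycline titles carry no such code. The fits took controls with the same code as separate arrays, so that a p-value measures the spread between these arrays. Levels are the deposited log2 values, on which a difference of 1 is a doubling of the signal. Where the 3 Tetracycline values of a time are listed, the array of extraction day 3 comes first and those of extraction day 4 follow.

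Tetracycline blocks the bacterial ribosome and, at high concentration, the related ribosome of mitochondria, which builds a small number of respiratory chain subunits. In the liver it is known for microvesicular steatosis, the accumulation of fat in small droplets. Hepatocytes dispose of fatty acids by oxidation in mitochondria and peroxisomes or by export as triglyceride in very low density lipoprotein (VLDL), which is assembled on apolipoprotein B by the microsomal triglyceride transfer protein. When mitochondria, the endoplasmic reticulum or amino acid supply are disturbed, cells slow protein synthesis and make the transcription factors ATF4 and CHOP, a programme called the integrated stress response. The hepatocyte identity of the cultures was checked on Alb, the gene of serum albumin, which lay at 14.38, 14.39 and 14.37 at 0.67 d and 14.32, 14.34 and 14.36 at 1 d on the Tetracycline arrays, against 14.27 to 14.41 (median 14.35) in the controls. The groups overlapped in Alb, whose level near the top of the scale leaves little room to show a change. The 14 measured hepatocyte markers had a mean log2 level of 11.17 on the Tetracycline arrays and 11.65 on the controls. Their median log2 change was -0.14, with falls of -2.35 in Cps1 and -2.20 in Arg1 that weigh on the mean. In bulk cultures such as these, fewer cells of a type and less RNA per cell cannot be told apart.

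Tetracycline lowered part of the genes listed for VLDL and apolipoproteins, fatty acid oxidation, ketone body formation, bile acid handling and plasma proteins. It also lowered most genes listed for the urea cycle and amino acid breakdown, and raised genes of the ATF4 and CHOP programme. A gene was called when the Benjamini-Hochberg adjusted p of the moderated limma test, fitted on all 14214 genes with treatment and exposure time as terms, was 0.01 or less and the change was 1.5-fold or more. By these bounds 1118 genes (7.87%) changed, of which 368 (2.59%) were higher and 750 (5.28%) lower than in the DMSO controls. On all 6 treated arrays 405 genes (2.85%) lay above all 24 controls and 347 (2.44%) below all of them. The median log2 change of all genes was 0.02. Subtracting the median of each array moved that median to 0.087 and split the calls into 530 higher and 632 lower, so that 45.6% of the calls were higher in place of 32.9%. No called gene changed sign under that setting.

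**Figure D1:**
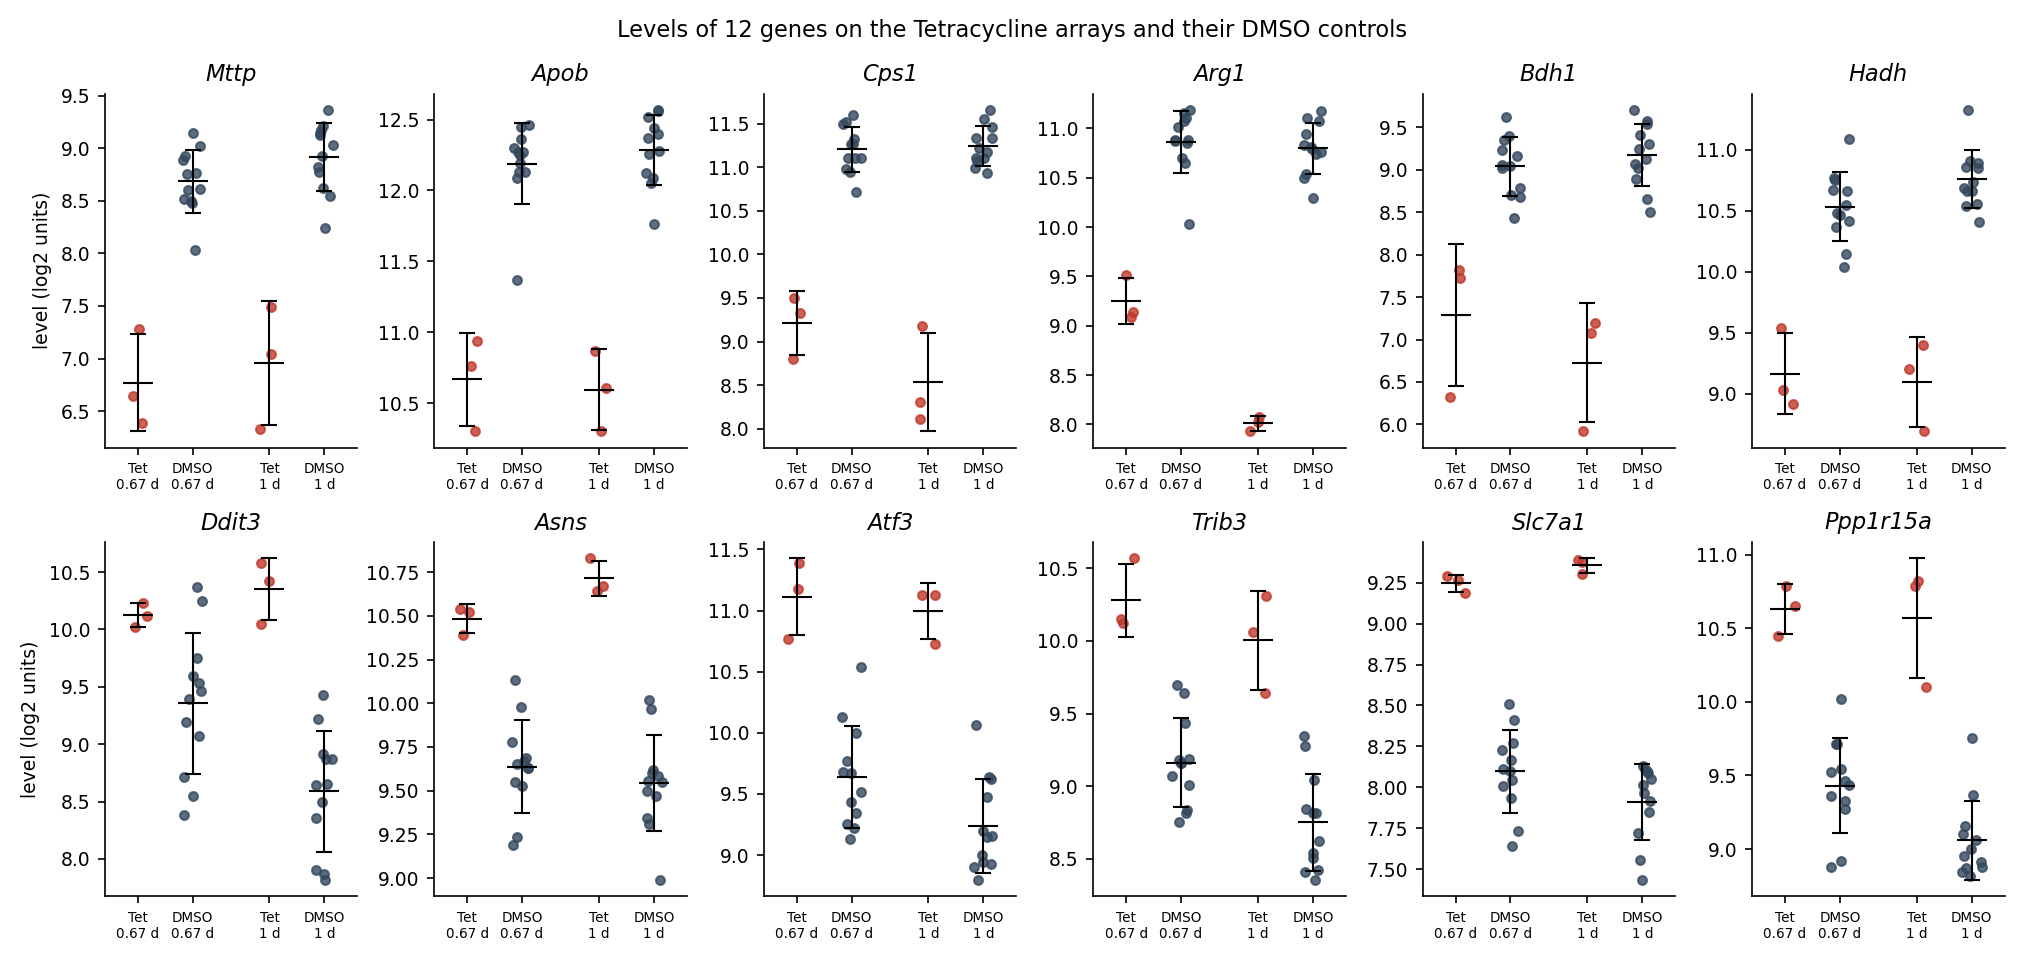
Levels (log2 units) of 12 genes on each array, with Tetracycline arrays (red) left of the DMSO arrays (grey) of the same exposure time, and the mean and SD of each group in black. Mttp, Apob, Cps1, Arg1, Bdh1 and Hadh lay lower on all 6 Tetracycline arrays than on all 24 controls, and Asns, Atf3, Slc7a1 and Ppp1r15a lay higher, whereas Ddit3 and Trib3 overlapped.

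Among 27 measured genes of VLDL assembly and apolipoproteins, 7 were called lower and 0 higher, with a median log2 change of -0.27. Mttp, the large subunit of the microsomal triglyceride transfer protein that loads lipid onto apolipoprotein B, was at 7.28, 6.39 and 6.64 at 0.67 d and 7.04, 6.33 and 7.49 at 1 d on the Tetracycline arrays, against 8.03 to 9.37 (median 8.80) in the controls. No treated array reached the lowest control, and the level fell to 0.261 of that in the controls (log2 -1.94 ± 0.15, adjusted p = 2.12e-11). Apob, the structural protein of VLDL, measured 10.94, 10.76 and 10.30 at 0.67 d and 10.61, 10.30 and 10.87 at 1 d under Tetracycline and 11.37 to 12.57 (median 12.27) in the controls. Its groups were also fully apart (log2 -1.61 ± 0.12, adjusted p = 6.66e-12), although its second probe set moved less, by log2 -0.64. Aadac, an arylacetamide deacetylase linked to the mobilisation of stored triglyceride, was at 4.53, 4.89 and 4.63 at 0.67 d and 4.10, 3.98 and 3.76 at 1 d with Tetracycline, against 4.96 to 6.63 (median 5.73) in the controls. Treated and control values of Aadac did not meet (log2 -1.43 ± 0.18, adjusted p = 2.07e-07). Pdzk1, a scaffold that holds the HDL receptor at the hepatocyte surface, fell as well (log2 -1.45 ± 0.15, adjusted p = 8.71e-09), and the remaining calls were Apoa1, the main protein of HDL (-0.81), Apon (-0.86) and Lcat, which esterifies plasma cholesterol (-0.68). Tm6sf2, which helps to load VLDL with lipid, changed by log2 -0.44 ± 0.08, adjusted p = 2.69e-05, short of 1.5-fold.

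Of 24 genes of mitochondrial fatty acid oxidation 7 were called lower and 0 higher (median log2 -0.40), and 4 were lower once the median of each array was subtracted. Hadh, the short-chain hydroxyacyl-CoA dehydrogenase of the oxidation spiral, was at 9.54, 9.03 and 8.92 at 0.67 d and 9.40, 8.69 and 9.20 at 1 d on the Tetracycline arrays, against 10.04 to 11.33 (median 10.66) in the controls. All treated values were below all control values (log2 -1.52 ± 0.12, adjusted p = 3.66e-11), while a second, dim probe set of Hadh gave log2 -0.07. Etfdh, which passes electrons from acyl-CoA dehydrogenases to the respiratory chain, measured 8.68, 8.50 and 8.55 at 0.67 d and 8.48, 8.14 and 8.78 at 1 d after Tetracycline and 8.93 to 9.67 (median 9.40) in the controls. Its groups were apart (log2 -0.87 ± 0.08, adjusted p = 1.33e-09). Acad11, an acyl-CoA dehydrogenase for very long chains (log2 -1.0 ± 0.09, adjusted p = 6.35e-10), and Acadm, the medium-chain enzyme (log2 -0.63 ± 0.07, adjusted p = 2.28e-08), fell on all 6 arrays below every control. The other calls were Acaa2 (-0.67), a thiolase whose second probe set gave -0.11, Eci2 (-0.64), an enoyl-CoA isomerase, and Echs1 (-0.59), the enoyl-CoA hydratase. Cpt1a, the gate of fatty acid entry into mitochondria, was not called, with 7.85, 7.24 and 7.26 at 0.67 d and 8.14, 7.80 and 8.15 at 1 d under Tetracycline and 7.24 to 8.60 (median 8.13) in the controls. Its log2 change of -0.35 had a 95% confidence interval of -0.66 to -0.04, with 1 treated array level with the lowest control and the others inside the control range. Hadha, the long-chain trifunctional subunit, changed by log2 -0.13 ± 0.05, adjusted p = 0.0603.

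Of the 4 measured ketogenesis genes 2 were lower and 0 higher (median log2 -0.54). Bdh1, which turns acetoacetate into beta-hydroxybutyrate, was at 6.33, 7.72 and 7.82 at 0.67 d and 5.92, 7.07 and 7.20 at 1 d on the Tetracycline arrays, against 8.43 to 9.71 (median 9.10) in the controls. The treated arrays all lay below the controls and the fall was to 0.234 of the control level (log2 -2.10 ± 0.20, adjusted p = 9.95e-10), with the lowest value at each time on the array whose RNA was extracted on day 3 of the extraction days. Acat1, the mitochondrial acetoacetyl-CoA thiolase, measured 8.94, 8.90 and 8.71 at 0.67 d and 8.67, 8.24 and 8.58 at 1 d in the Tetracycline group and 9.0 to 9.83 (median 9.42) in the controls. Its groups were apart, with log2 -0.74, and the call was lost with the median of its probe sets. Among 29 listed targets of the fatty acid receptor PPARa, which include peroxisomal, Cyp4a and other genes, 8 were called lower and 0 higher (median -0.34). Vnn1, a pantetheinase, fell most (log2 -1.71 ± 0.29, adjusted p = 1.57e-05), followed by Creb3l3, a liver transcription factor for triglyceride clearance (log2 -1.02 ± 0.11, adjusted p = 1.98e-08), and Slc27a2, a fatty acid transporter and activating enzyme (log2 -1.01 ± 0.18, adjusted p = 3.30e-05). Ehhadh, the peroxisomal bifunctional enzyme, was at 5.58, 6.34 and 5.53 at 0.67 d and 5.82, 5.45 and 5.35 at 1 d with Tetracycline, against 5.25 to 7.17 (median 6.28) in the controls, and Cyp4a1, a fatty acid hydroxylase, changed by log2 -0.35 ± 0.34, adjusted p = 0.462. Neither was called and both overlapped with the controls. Cyp4a3 was called at log2 -0.92 ± 0.24, adjusted p = 0.0025, and the call was lost without the second 1 d array of extraction day 4 (log2 -0.82, adjusted p = 0.0134).

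Genes that make or store triglyceride had 7 calls, all lower, beside 5.28% of all genes lower. In fatty acid synthesis and desaturation 2 of 20 genes were lower and 0 higher (median -0.16), in triglyceride synthesis 2 of 15 lower and 0 higher (median 0.06), and in lipid droplets and lipolysis 3 of 24 lower and 0 higher (median -0.14). Plin2, the coat protein of hepatocyte lipid droplets, was at 12.70, 12.68 and 12.34 at 0.67 d and 12.60, 12.63 and 12.34 at 1 d on the Tetracycline arrays, against 12.04 to 12.63 (median 12.30) in the controls. The groups overlapped and the change of 1.19-fold (log2 0.25 ± 0.06, adjusted p = 0.00176) was below the 1.5-fold bound. Fasn, fatty acid synthase (log2 0.28 ± 0.09, adjusted p = 0.0117), and Dgat2, which adds the last acyl chain of triglyceride (log2 0.44 ± 0.10, adjusted p = 0.000453), were likewise under the bound, and Scd, the stearoyl-CoA desaturase, changed by log2 -0.27 ± 0.20, adjusted p = 0.332. Gpam, the acyltransferase that opens glycerolipid synthesis, measured 6.04, 5.93 and 6.84 at 0.67 d and 6.65, 6.46 and 6.91 at 1 d under Tetracycline and 7.15 to 8.01 (median 7.52) in the controls. It was the largest fall of the triglyceride synthesis list and its groups did not overlap (log2 -1.06 ± 0.12, adjusted p = 4.02e-08). Mgll, monoacylglycerol lipase (log2 -1.41 ± 0.21, adjusted p = 2.77e-06), Hsd17b13, a lipid droplet enzyme (log2 -0.98 ± 0.16, adjusted p = 7.91e-06), and Acss2, which makes acetyl-CoA from acetate (log2 -0.76 ± 0.10, adjusted p = 5.24e-07), were lower. The remaining calls of these lists were each lost in several of the fits that left out 1 array. Thrsp, a lipogenic nuclear protein, was called at -1.11 and lost its call without any of 4 Tetracycline arrays, with log2 from -1.12 to -0.95. G0s2, an inhibitor of triglyceride lipase, was called at -0.74 and lost its call without any of 5, with log2 from -0.76 to -0.63. Agpat3, an acyltransferase of phospholipid and triglyceride synthesis, stood at -0.59, just past the bound, and 9 of the 30 fits without 1 array lost it. Among 21 genes of cholesterol synthesis and uptake 3 were higher and 1 lower (median 0.02). Those higher were Hsd17b7 (0.83, with 0.46 on its second probe set), Msmo1 (0.64) and Fdps (0.62), all enzymes of sterol synthesis, and the lower one was Nsdhl (-0.63), another enzyme of the same chain.

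Of 41 measured ATF4 and CHOP genes, 24 were called higher and 1 lower, with a median log2 change of 0.67, against 2.59% of all genes higher. Ddit3, which encodes CHOP, was at 10.12, 10.23 and 10.02 at 0.67 d and 10.58, 10.42 and 10.05 at 1 d on the Tetracycline arrays, against 7.82 to 10.37 (median 8.89) in the controls. Its groups overlapped at 0.67 d through controls of that time, whose highest value was 10.37, and at 1 d every treated array lay above the highest control of 9.43 (log2 1.26 ± 0.24, adjusted p = 9.13e-05). Atf4 averaged 12.50 on the Tetracycline arrays and 11.70 on the controls (log2 0.80 ± 0.07, adjusted p = 3.10e-10). Atf3, a stress factor induced by ATF4, measured 11.18, 11.39 and 10.77 at 0.67 d and 11.13, 11.13 and 10.73 at 1 d with Tetracycline and 8.80 to 10.54 (median 9.39) in the controls. The treated values were all above the controls, a rise to 3.07-fold (log2 1.62 ± 0.16, adjusted p = 3.84e-09). Ppp1r15a, the phosphatase subunit that restores translation, was at 10.45, 10.79 and 10.65 at 0.67 d and 10.82, 10.79 and 10.10 at 1 d under Tetracycline, against 8.82 to 10.02 (median 9.22) in the controls. No control reached the lowest treated array (log2 1.35 ± 0.13, adjusted p = 1.44e-09). Trib3, a pseudokinase that restrains ATF4, measured 10.15, 10.57 and 10.12 at 0.67 d and 10.06, 10.31 and 9.64 at 1 d in treated cells and 8.36 to 9.70 (median 8.93) in the controls. Only 1 treated array, at 1 d, lay within the control range, through controls of 0.67 d (log2 1.19 ± 0.14, adjusted p = 3.09e-08).

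Amino acid genes formed a large share of the ATF4 list. Asns, asparagine synthetase, was at 10.52, 10.54 and 10.39 at 0.67 d and 10.67, 10.64 and 10.83 at 1 d on the Tetracycline arrays, against 8.99 to 10.13 (median 9.59) in the controls. Groups of Asns were apart and the level reached 2.01-fold (log2 1.01 ± 0.11, adjusted p = 1.69e-08). Slc7a1, the transporter of arginine and lysine, measured 9.19, 9.29 and 9.27 at 0.67 d and 9.39, 9.38 and 9.30 at 1 d with Tetracycline and 7.43 to 8.51 (median 8.05) in the controls. All 6 arrays were above all controls (log2 1.30 ± 0.10, adjusted p = 1.84e-11). Slc7a5, the light chain of the large neutral amino acid transporter, rose by log2 1.28, and the serine pathway enzymes Psph (0.88), Psat1 (0.70) and Phgdh (0.61) rose together with the mitochondrial folate enzyme Mthfd2 (1.09). Sesn2, which senses leucine (log2 1.15 ± 0.10, adjusted p = 1.69e-10), Chac1, which breaks down glutathione (log2 1.12 ± 0.12, adjusted p = 6.97e-09), and Nupr1, a stress cofactor (log2 0.99 ± 0.16, adjusted p = 6.57e-06), were also higher. The 1 gene lower was Ero1a, an oxidase of the endoplasmic reticulum that also stands in the hypoxia list, at 7.81, 8.48 and 8.07 at 0.67 d and 7.46, 7.54 and 7.67 at 1 d under Tetracycline and 8.16 to 10.16 (median 9.19) in the controls. Its values overlapped in part across the times, and within each time no treated array reached the lowest control (log2 -1.36 ± 0.18, adjusted p = 3.05e-07).

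The C/EBP-ATF composite element is the DNA word through which ATF4 and CHOP are known to act. Of the promoters in the list that carry it, only those of genes called higher are shown. TGATGNAA, searched on both strands from 250 bases before to 50 after the annotated start in RefSeq promoters of assembly GRCr8, matched in 7 of 33 promoters available for the ATF4 list, in 4 of the 21 available for its genes called higher, and in 259 of 11736 promoters of all genes (2.21%). The other matches of the list were in the promoters of Jdp2, Pck2 and Slc1a4, which were not called. The 4 of genes called higher are printed from 5′ to 3′ in the direction of the gene, with the matched letters in capitals. Chac1 lies at chr3:126795881-126796180 on the plus strand, Nupr1 at chr1:190645852-190646151 on the minus strand, Slc7a1 at chr12:11664238-11664537 on the plus strand and Trib3 at chr3:161275484-161275783 on the minus strand.
Chac1: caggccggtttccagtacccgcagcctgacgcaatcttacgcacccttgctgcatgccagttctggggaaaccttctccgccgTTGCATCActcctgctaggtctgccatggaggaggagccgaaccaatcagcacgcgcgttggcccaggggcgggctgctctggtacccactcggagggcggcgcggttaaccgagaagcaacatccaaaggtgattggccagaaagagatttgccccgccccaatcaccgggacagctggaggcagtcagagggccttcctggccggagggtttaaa
Nupr1: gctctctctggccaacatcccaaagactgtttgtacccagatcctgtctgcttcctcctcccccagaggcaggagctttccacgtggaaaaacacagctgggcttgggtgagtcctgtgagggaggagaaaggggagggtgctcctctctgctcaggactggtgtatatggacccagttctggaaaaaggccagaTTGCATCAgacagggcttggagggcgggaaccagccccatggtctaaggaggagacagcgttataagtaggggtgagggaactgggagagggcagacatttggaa
Slc7a1: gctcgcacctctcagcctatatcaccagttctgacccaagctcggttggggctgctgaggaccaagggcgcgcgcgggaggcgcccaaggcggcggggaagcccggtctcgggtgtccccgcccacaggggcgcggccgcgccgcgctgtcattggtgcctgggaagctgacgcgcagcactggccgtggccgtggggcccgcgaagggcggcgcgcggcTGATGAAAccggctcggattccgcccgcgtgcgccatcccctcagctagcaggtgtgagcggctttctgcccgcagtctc
Trib3: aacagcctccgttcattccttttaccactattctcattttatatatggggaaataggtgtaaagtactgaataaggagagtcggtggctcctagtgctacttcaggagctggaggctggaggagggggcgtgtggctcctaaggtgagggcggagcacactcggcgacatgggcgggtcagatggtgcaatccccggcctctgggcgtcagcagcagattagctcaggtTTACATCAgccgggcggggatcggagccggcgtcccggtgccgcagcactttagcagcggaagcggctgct
Counted from the annotated start, the first matched base stood at -167 in Chac1, -55 in Nupr1, -30 in Slc7a1 and -21 in Trib3. A match is a run of letters and not a measured binding site. The PPAR response element, searched on both strands as AGGTCA, any base and AGGTCA again, matched in 0 of 25 promoters of the PPARa list, 0 of 20 of the fatty acid oxidation list and 4 of 11736 of all genes (0.0341%).

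Cytosolic aminoacyl-tRNA synthetases, which charge tRNAs with amino acids, had 5 of 19 measured genes higher and 0 lower (median log2 0.39). Sars1, for serine, was at 11.35, 11.56 and 11.26 at 0.67 d and 11.80, 11.63 and 11.39 at 1 d on the Tetracycline arrays, against 9.97 to 10.83 (median 10.36) in the controls. No treated value met a control value (log2 1.14 ± 0.10, adjusted p = 2.86e-10). Wars1, for tryptophan (log2 0.90 ± 0.10, adjusted p = 1.53e-08), Yars1, for tyrosine (log2 0.70 ± 0.06, adjusted p = 3.04e-10), and Mars1, for methionine (log2 0.68 ± 0.05, adjusted p = 1.36e-11), also lay above all controls, and Cars1, for cysteine, was the remaining call (0.61). Aars1, for alanine, came to log2 0.54 ± 0.07, adjusted p = 7.13e-07 and Gars1, for glycine, to log2 0.39 ± 0.05, adjusted p = 7.48e-07, each under 1.5-fold. Among 9 secreted stress factors of the liver 3 were higher and 0 lower (median -0.02), namely Bmp2 (log2 1.33 ± 0.09, adjusted p = 1.87e-12), Fst, which binds activins (log2 1.32 ± 0.28, adjusted p = 0.000259), and Inhbe, an activin subunit (log2 0.67 ± 0.10, adjusted p = 2.15e-06). The calls of Fst and Inhbe were lost with hybridization day as a block (log2 1.43 and 0.46) and with extraction day as a block (1.10 and 0.55). Fgf21, the fasting and mitochondrial stress hormone, was not among them, with 6.0, 5.93 and 5.91 at 0.67 d and 6.15, 6.08 and 6.37 at 1 d with Tetracycline and 5.39 to 7.48 (median 5.97) in the controls. The Fgf21 groups overlapped (log2 -0.05, 95% confidence interval -0.45 to 0.34). Gdf15, another stress hormone, changed by log2 0.23 ± 0.19, adjusted p = 0.371. Of 23 endoplasmic reticulum chaperones and degradation genes 2 were higher and 0 lower (median 0.07). They were Herpud1, of protein degradation (log2 0.71 ± 0.12, adjusted p = 2.13e-05), and Dnajb9, a cofactor of BiP (log2 0.68 ± 0.14, adjusted p = 0.000157). Hspa5, which encodes BiP itself, changed by log2 0.41 ± 0.11, adjusted p = 0.00264, short of the bound.

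Genes of the mitochondrial ribosome and respiratory chain, encoded in the nucleus, were rarely called. In the mitochondrial ribosome 1 of 74 genes was higher and 0 lower (median log2 -0.08), in translation factors and synthetases of mitochondria 0 of 28 higher and 1 lower (-0.06), in genome maintenance 1 of 17 higher and 0 lower (0.21), and in chaperones and proteases 0 of 18 higher and 1 lower (0.07). Respiratory complex I had 0 calls among 33 genes (median -0.17), complexes II to V 0 among 34 (-0.09) and assembly factors 0 among 24 (-0.05), beside 7.87% of all genes called. Mrpl47, a protein of the large mitochondrial subunit, was at 9.07, 9.42 and 9.18 at 0.67 d and 9.39, 9.33 and 9.35 at 1 d on the Tetracycline arrays, against 8.10 to 9.01 (median 8.46) in the controls. It was the sole ribosomal call, above every control (log2 0.85 ± 0.10, adjusted p = 3.69e-08). Pprc1, a coactivator of mitochondrial biogenesis, measured 8.35, 8.22 and 8.13 at 0.67 d and 8.52, 8.48 and 8.64 at 1 d with Tetracycline and 7.10 to 7.88 (median 7.49) in the controls. Treated arrays were all higher (log2 0.92 ± 0.10, adjusted p = 5.82e-09). Cars2, the mitochondrial cysteinyl-tRNA synthetase (log2 -0.66 ± 0.10, adjusted p = 2.25e-06), and Trap1, a mitochondrial HSP90 (log2 -0.65 ± 0.07, adjusted p = 9.88e-09), were the calls on the lower side. Tufm, the elongation factor of mitochondrial translation, stayed at log2 0.01 (95% confidence interval -0.09 to 0.12), and Sdha, a subunit of complex II, lay below all controls by less than 1.5-fold (log2 -0.46 ± 0.05, adjusted p = 2.84e-09). Transcripts encoded by mitochondrial DNA were not part of these lists and are not analysed here.

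**Figure D2:**
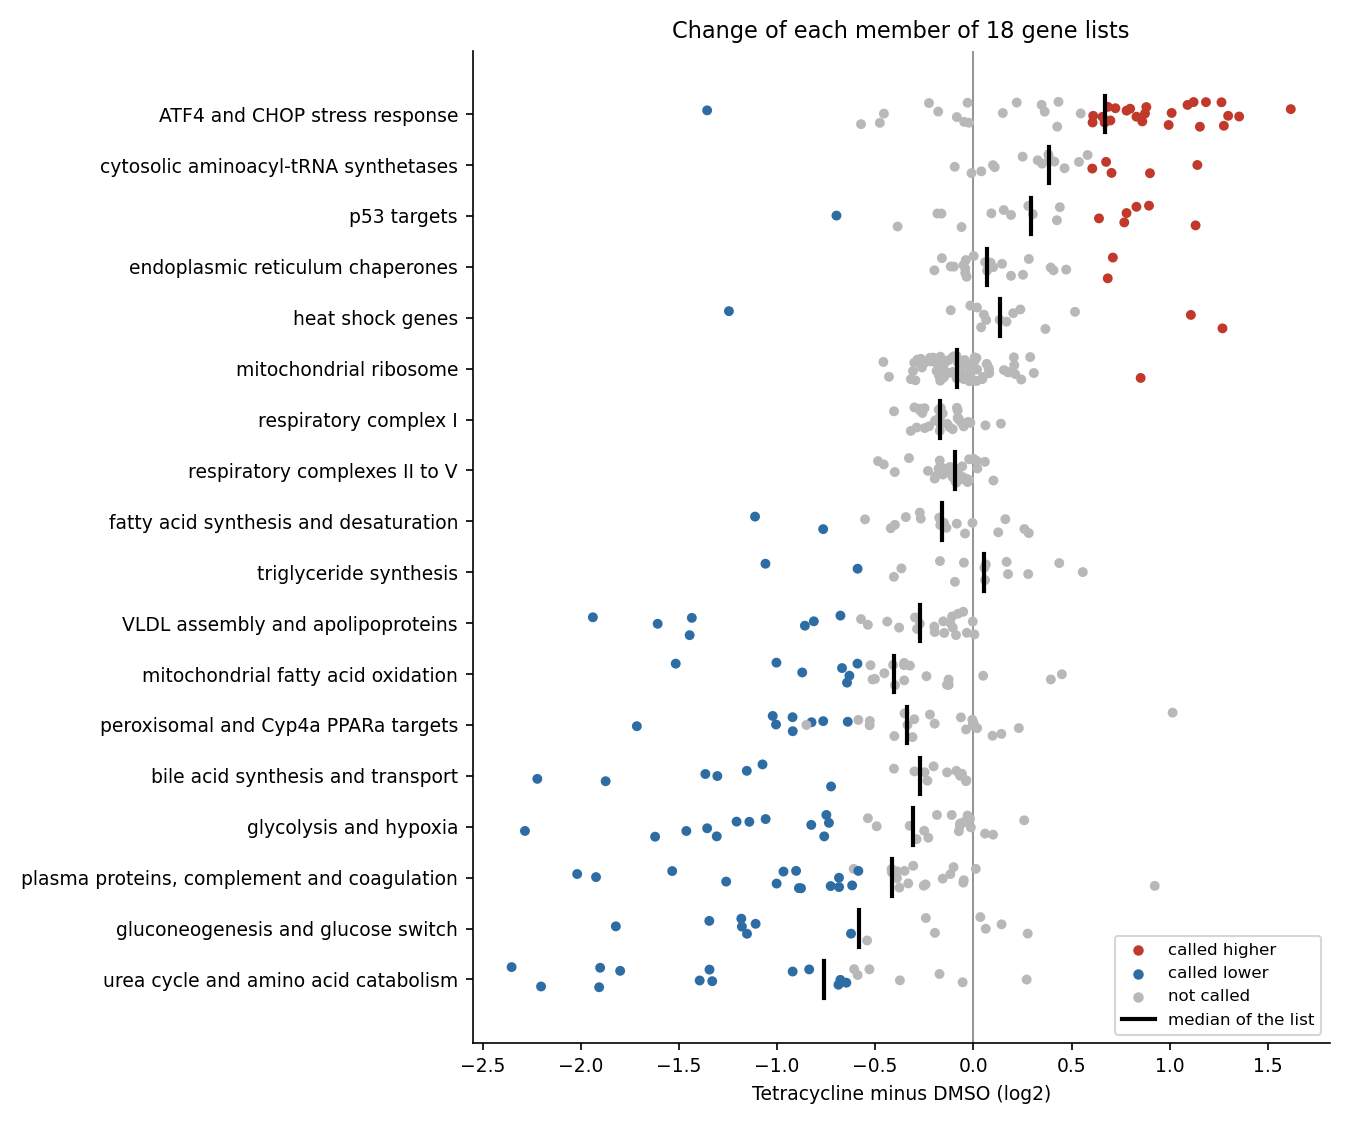
Log2 change of each measured member (points) of 18 gene lists, Tetracycline minus DMSO, with the median of the list as a bar and the call by colour. ATF4 and CHOP genes lie mostly to the right (24 of 41 higher), urea cycle and amino acid genes mostly to the left (13 of 20 lower), and both lists of respiratory complexes have 0 calls.

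Genes of nitrogen disposal were lower as a group. Of 20 measured urea cycle and amino acid breakdown genes, 13 were lower and 0 higher (median log2 -0.76). Cps1, which fixes ammonia at the entry of the urea cycle, was at 9.50, 9.33 and 8.80 at 0.67 d and 8.31, 8.12 and 9.18 at 1 d on the Tetracycline arrays, against 10.72 to 11.66 (median 11.19) in the controls. The groups were more than 1 log2 unit apart and the level fell to 0.196 of the control (log2 -2.35 ± 0.14, adjusted p = 1.05e-13). Arg1, the arginase that releases urea, measured 9.09, 9.52 and 9.14 at 0.67 d and 8.07, 7.93 and 8.03 at 1 d with Tetracycline and 10.03 to 11.19 (median 10.86) in the controls. Its treated arrays were below all controls and lower at 1 d than at 0.67 d (log2 -2.20 ± 0.16, adjusted p = 4.71e-12). Ass1, the cycle's argininosuccinate synthetase, lay at 12.64, 12.78 and 12.78 at 0.67 d and 12.36, 12.66 and 12.46 at 1 d under Tetracycline and 12.31 to 13.02 (median 12.69) in the controls. These overlapped, with a log2 change of -0.05 (95% confidence interval -0.19 to 0.09), and Ass1 was not called. Otc, ornithine transcarbamylase, overlapped with its controls on 1 array of extraction day 4 (log2 -1.33 ± 0.26, adjusted p = 0.000142). Gldc, which cleaves glycine (log2 -1.90 ± 0.12, adjusted p = 1.31e-13), Cdo1, which oxidises cysteine (log2 -1.91 ± 0.16, adjusted p = 1.43e-10), Bhmt, of homocysteine methylation (-1.80), and Tdo2, of tryptophan (-1.39), fell as well.

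In gluconeogenesis and the glucose switch 7 of 14 genes were lower and 0 higher (median -0.58). Gys2, the liver glycogen synthase, was at 5.53, 5.12 and 5.29 at 0.67 d and 5.67, 5.01 and 5.81 at 1 d on the Tetracycline arrays, against 6.11 to 7.79 (median 7.22) in the controls. No overlap was seen (log2 -1.82 ± 0.16, adjusted p = 2.20e-10). Fbp1, fructose-bisphosphatase of gluconeogenesis, measured 8.76, 9.05 and 8.44 at 0.67 d and 8.16, 7.76 and 8.05 at 1 d with Tetracycline and 9.08 to 10.37 (median 9.73) in the controls. Its groups were apart (log2 -1.35 ± 0.14, adjusted p = 6.11e-09). Gpt, alanine aminotransferase (log2 -1.18 ± 0.20, adjusted p = 1.27e-05), Pklr, liver pyruvate kinase (log2 -1.18 ± 0.24, adjusted p = 0.000206), and Pygl, glycogen phosphorylase (-1.15), were lower. Pck1, which starts gluconeogenesis from oxaloacetate, was called at log2 -1.11 ± 0.29, adjusted p = 0.00282, and lost its call without either of the first 2 arrays at 1 d, with log2 -1.05 (adjusted p = 0.0107) and -0.99 (adjusted p = 0.0151). Slc2a2, the glucose transporter GLUT2, was lower by -0.62, short of the bound without either 1 d array of extraction day 4 (-0.53 and -0.52). Of 30 genes of glycolysis and hypoxia 12 were lower and 0 higher (median -0.31). Egln3, an oxygen-sensing prolyl hydroxylase, was at 7.76, 9.14 and 8.83 at 0.67 d and 7.12, 7.61 and 7.69 at 1 d under Tetracycline, against 9.47 to 10.99 (median 10.35) in the controls. All 6 treated arrays were below the lowest control (log2 -2.28 ± 0.20, adjusted p = 2.70e-10). Slc16a3, the lactate exporter (log2 -1.62 ± 0.24, adjusted p = 2.74e-06), Adm, adrenomedullin (log2 -1.46 ± 0.19, adjusted p = 3.92e-07), Pdk1, which shuts pyruvate dehydrogenase (-1.31), and Pfkp, a phosphofructokinase (-1.14), fell. Ldha, lactate dehydrogenase A (log2 -0.19 ± 0.05, adjusted p = 0.00224), and Slc2a1, the glucose transporter GLUT1 (log2 -0.07 ± 0.16, adjusted p = 0.789), were not called.

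Bile acid genes had 7 of 18 measured members lower and 0 higher (median -0.27). Baat, which joins bile acids to glycine or taurine, was at 7.67, 7.27 and 7.68 at 0.67 d and 6.84, 6.16 and 7.79 at 1 d on the Tetracycline arrays, against 8.53 to 10.06 (median 9.56) in the controls. The treated arrays lay below all controls (log2 -2.22 ± 0.21, adjusted p = 1.38e-09). Abcb11, the bile salt export pump, measured 8.89, 8.92 and 8.65 at 0.67 d and 7.83, 8.01 and 8.14 at 1 d with Tetracycline and 9.18 to 10.14 (median 9.82) in the controls. Its groups did not overlap either (log2 -1.37 ± 0.10, adjusted p = 3.80e-12). Slco1b2 and Slc10a1, uptake carriers for bile acids, were lower (Slco1b2, log2 -1.87 ± 0.21, adjusted p = 2.58e-08, and Slc10a1, log2 -1.30 ± 0.25, adjusted p = 9.23e-05), each with 1 treated array inside the control range. Cyp7a1, the rate-limiting enzyme of bile acid synthesis, was low in every group, with 3.92, 4.07 and 3.96 at 0.67 d and 3.57, 3.86 and 3.59 at 1 d under Tetracycline and 3.54 to 4.22 (median 3.90) in the controls. It overlapped throughout (log2 -0.09, 95% confidence interval -0.26 to 0.09). Of 32 plasma protein genes 14 were lower and 0 higher (median -0.42), which included C5, of complement (log2 -2.02 ± 0.16, adjusted p = 4.04e-11), Mbl2, mannose-binding lectin (log2 -1.92 ± 0.15, adjusted p = 1.82e-11), and C8a, of the membrane attack complex (log2 -1.26 ± 0.11, adjusted p = 3.38e-10). A2m, alpha-2-macroglobulin, was called at -1.53, and within extraction day 3 its log2 change was 0.03. The abundant Ttr, transthyretin (log2 -0.05 ± 0.07, adjusted p = 0.64), and Serpina1, alpha-1-antitrypsin (log2 -0.10 ± 0.05, adjusted p = 0.152), were not called, like Alb.

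Of 23 liver P450 and conjugation genes 6 were lower and 0 higher (median -0.47). Sult1a1, a phenol sulfotransferase, was at 8.42, 8.31 and 7.66 at 0.67 d and 7.24, 6.67 and 6.22 at 1 d on the Tetracycline arrays, against 9.45 to 11.20 (median 10.11) in the controls. It fell to 0.145 of the control level with no overlap (log2 -2.79 ± 0.23, adjusted p = 4.43e-11). Cyp2c11 (log2 -0.78 ± 0.26, adjusted p = 0.0191), Cyp2e1 (log2 -0.04 ± 0.27, adjusted p = 0.933) and Cyp3a2 (log2 -0.43 ± 0.38, adjusted p = 0.418), major P450 enzymes of rat liver, were not called and overlapped with their controls. Xenobiotic receptor targets had 1 of 18 genes higher, the drug pump Abcb1a (log2 1.17 ± 0.19, adjusted p = 1.33e-05), and 4 lower (median -0.20), which included Aldh1a1, a retinal dehydrogenase at 6.06, 6.87 and 5.42 at 0.67 d and 5.23, 5.71 and 5.31 at 1 d with Tetracycline, against 7.21 to 10.46 (median 8.79) in the controls. Every treated array of Aldh1a1 was below the controls (log2 -3.16 ± 0.37, adjusted p = 4.25e-08). Antioxidant genes under NRF2 moved in both directions, 3 of 26 higher and 5 lower (median -0.11), beside 2.59% of all genes higher and 5.28% lower. Gclc, the catalytic subunit of glutathione synthesis, measured 8.88, 9.13 and 8.44 at 0.67 d and 8.38, 8.34 and 8.35 at 1 d under Tetracycline and 10.20 to 11.11 (median 10.69) in the controls. It was clearly apart and fell to 0.233 (log2 -2.10 ± 0.11, adjusted p = 4.59e-15), while Osgin1, an oxidative stress growth inhibitor, rose above all controls (log2 1.06 ± 0.09, adjusted p = 1.08e-10). Nqo1, a quinone reductase and classical NRF2 target, was lower (log2 -0.78 ± 0.24, adjusted p = 0.00933), and the small MAF proteins Maff (1.22) and Mafg (0.65) were higher.

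Stress lists outside ATF4 had calls on both sides, and their counts stand beside 2.59% of all genes higher and 5.28% lower. Of 18 p53 targets 6 were higher and 1 lower (median 0.29), and 2 of those higher, Bbc3 and Gadd45a, also stand in the ATF4 list. Aen, an exonuclease induced by p53, was at 10.74, 10.43 and 10.33 at 0.67 d and 11.01, 10.37 and 10.43 at 1 d on the Tetracycline arrays, against 9.08 to 9.87 (median 9.36) in the controls. Its groups were apart (log2 1.13 ± 0.10, adjusted p = 2.61e-10). Mdm2, the ubiquitin ligase for p53 (log2 0.64 ± 0.10, adjusted p = 3.67e-06), and Cdkn1a, the cell cycle inhibitor p21 (log2 0.89 ± 0.17, adjusted p = 0.000115), rose, and Sesn1 was lower (-0.70). The call of Cdkn1a was lost with hybridization day (log2 0.53, adjusted p = 0.0984) and with extraction day as a block (0.80, adjusted p = 0.0212). Among 15 heat shock genes (median 0.13) Hspb1, a small heat shock protein (log2 1.27 ± 0.17, adjusted p = 4.39e-07), and Zfand2a (1.11) were higher and Cryab, another small heat shock protein (log2 -1.25 ± 0.20, adjusted p = 1.13e-05), lower. In proliferation 1 of 23 genes was called (median 0.01), Myc (log2 1.09 ± 0.10, adjusted p = 7.86e-10), a transcription factor of cell growth. Of 25 inflammation genes 3 were higher, Il6, Icam1 and Tnfaip3, and 2 lower, Ccl20 and Cxcl10 (median 0.17). Icam1, a leukocyte adhesion molecule, was above all controls (log2 0.94 ± 0.09, adjusted p = 1.17e-09), and Il6, an acute phase cytokine, was at 4.11, 5.87 and 4.97 at 0.67 d and 4.08, 5.48 and 5.91 at 1 d with Tetracycline, against 3.52 to 4.97 (median 3.80) in the controls. In Il6 the first array at each time, that of extraction day 3, lay within the control range, and the other 4 lay above it, 1 of them only just (log2 1.18 ± 0.20, adjusted p = 2.04e-05).

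Egr1 had the largest rise and Clcn4 the largest fall of the called genes. Egr1, an immediate early transcription factor, was at 11.04, 10.50 and 10.96 at 0.67 d and 10.77, 10.71 and 10.56 at 1 d on the Tetracycline arrays, against 7.10 to 9.74 (median 8.46) in the controls. The rise was 5.2-fold and apart from all controls (log2 2.38 ± 0.27, adjusted p = 2.58e-08). Ifrd1, a stress-responsive cofactor, measured 12.45, 12.26 and 12.35 at 0.67 d and 12.45, 12.10 and 12.16 at 1 d with Tetracycline and 9.97 to 11.10 (median 10.50) in the controls. Each treated array exceeded the highest control (log2 1.83 ± 0.10, adjusted p = 4.50e-14). Klf5, a transcription factor, was at 6.39, 6.83 and 7.18 at 0.67 d and 7.29, 7.20 and 6.78 at 1 d under Tetracycline and 4.42 to 5.54 (median 5.12) in the controls. The groups of Klf5 did not meet (log2 1.84 ± 0.14, adjusted p = 8.98e-12), but 2 of its 4 probe sets stayed near 0. Ptgs2, the inducible cyclooxygenase, had 3.40, 5.81 and 6.38 at 0.67 d and 3.34, 6.90 and 6.96 at 1 d after Tetracycline and 2.96 to 4.66 (median 3.15) in the controls. Here the array of extraction day 3 at each time was within the control range and the other 4 were above it (log2 2.03 ± 0.38, adjusted p = 6.66e-05), and the call was lost with hybridization day as a block (log2 1.35, adjusted p = 0.0470). Klf4, a transcription factor (1.69), Cd69, an early activation antigen (1.78), Gem, a small GTPase (1.52), Cish, an inhibitor of cytokine signals (1.45), Traf1, an adaptor of TNF receptors (1.61), and Bcat1, which transfers the amino group of branched-chain amino acids (1.40), were among the 15 largest rises of genes with all 6 treated arrays above the mean of the controls of their time, which Ptgs2 does not meet. Of these, Klf4, Traf1 and Bcat1 overlapped with the controls, and another probe set of Traf1 gave log2 0.07.

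On the lower side Clcn4, a chloride-proton exchanger, was at 5.72, 5.83 and 5.39 at 0.67 d and 4.84, 4.79 and 4.83 at 1 d on the Tetracycline arrays, against 7.71 to 9.51 (median 8.65) in the controls. The level fell to 0.0967 of the control, and the groups were apart by more than 1 log2 unit (log2 -3.37 ± 0.21, adjusted p = 1.48e-13), while its second, dimmer probe set gave log2 -1.77. Cxcl12, a chemokine, measured 4.37, 4.39 and 4.48 at 0.67 d and 4.38, 3.95 and 4.34 at 1 d with Tetracycline and 5.29 to 8.15 (median 7.20) in the controls. Treated arrays were all lower (log2 -2.92 ± 0.24, adjusted p = 4.12e-11), and 2 dimmer probe sets of Cxcl12 gave log2 -1.05 and -0.65. Duox2, which makes hydrogen peroxide, was at 4.87, 7.20 and 5.71 at 0.67 d and 4.68, 5.63 and 4.69 at 1 d under Tetracycline, against 6.02 to 10.24 (median 8.84) in the controls. A 0.67 d array of extraction day 4 overlapped with the lower controls of 1 d (log2 -3.15 ± 0.41, adjusted p = 2.56e-07). Within each time no treated array reached the lowest control, which was 8.02 at 0.67 d and 6.02 at 1 d. Mylk, myosin light chain kinase (log2 -2.25 ± 0.16, adjusted p = 4.71e-12), and Selenbp1, a methanethiol oxidase (log2 -2.39 ± 0.15, adjusted p = 2.79e-13), were below all controls, and Lox, which cross-links collagen, overlapped on 1 array (log2 -2.32 ± 0.33, adjusted p = 1.46e-06). Urad, of uric acid breakdown (-2.46), Hao2, a hydroxyacid oxidase of peroxisomes (-2.42), Sult1b1, a sulfotransferase (-2.67), and Arhgap24, a regulator of small GTPases (-2.28), were among the 15 largest falls by the same rule.

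The exposure times were compared through the difference of the log2 changes, 1 d minus 0.67 d. All 1118 called genes had the same sign at both times, and 891 had the larger change at 1 d. They were called on the arrays of both times together, so that the agreement in sign was largely set by the choice. In fits of each time alone, 552 genes were called at both. Fitted alone, 0.67 d gave 681 calls (4.79% of genes, 186 higher and 495 lower) and 1 d gave 1247 (8.77%, 580 higher and 667 lower). At 0.67 d 4 genes of VLDL assembly and apolipoproteins and 4 of mitochondrial fatty acid oxidation were lower, and 16 of the ATF4 list were higher. The difference itself was called for 0 of 14214 genes (0%) by limma and for 0 by the ordinary linear model, with 919 genes at an unadjusted p of 0.05 or less and 1 gene, Narf, at an adjusted p under 0.05. Narf, a nuclear protein, was at 8.74, 8.96 and 9.0 at 0.67 d and 8.27, 8.18 and 8.22 at 1 d on the Tetracycline arrays, against 8.67 to 9.19 (median 8.96) in the controls. All 1 d arrays of Narf were below the lowest control and all 0.67 d arrays within the control range (difference -0.77, adjusted p = 0.0240). Arg1 changed by log2 -1.62 at 0.67 d and -2.79 at 1 d (difference -1.17, adjusted p = 0.159), and Slc2a2 by -0.19 and -1.06 (difference -0.87, adjusted p = 0.383). With replicate number as a block, 3 differences were called, those of Arg1, Narf and Slc2a2. Ddit3 changed by 0.77 at 0.67 d and 1.76 at 1 d and Mttp by -1.92 and -1.96, neither with a called difference.

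**Figure D3:**
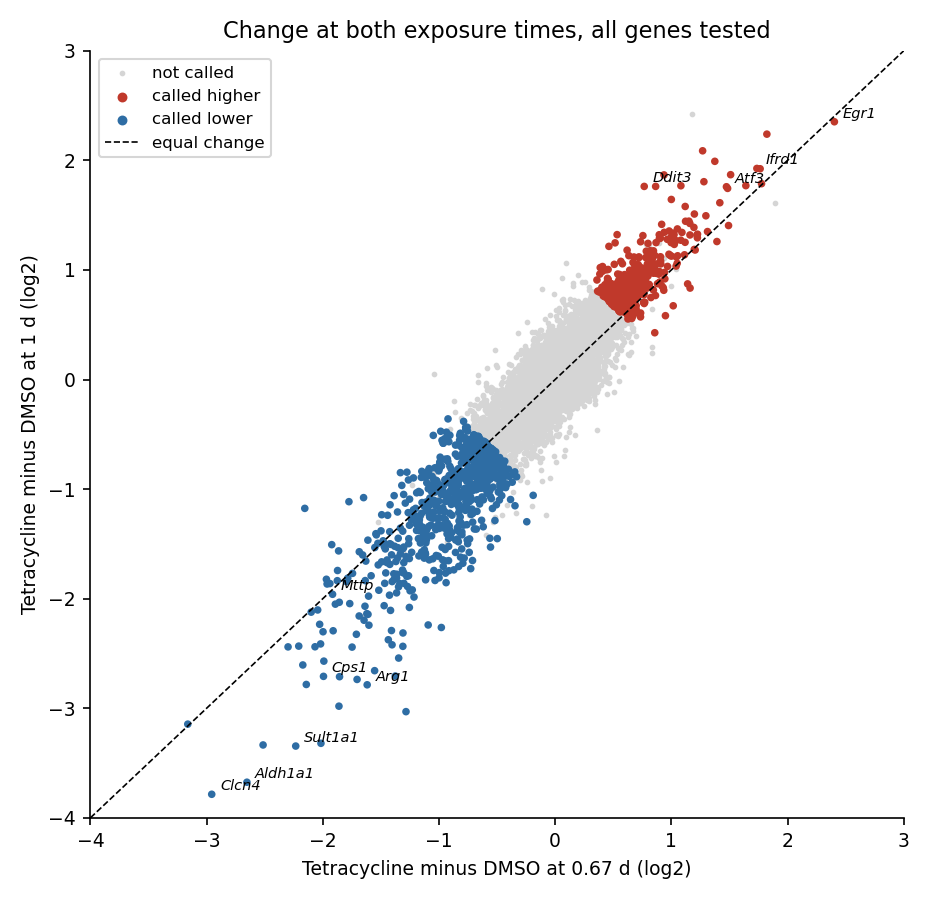
Log2 change of every tested gene, Tetracycline minus DMSO, at 0.67 d (horizontal axis) and at 1 d (vertical axis), with called genes in colour and a dashed line of equal change. The 1118 called genes lie at the lower left and upper right, and 891 of them are farther from 0 at 1 d. They were called on the arrays of both times together, which largely sets the agreement in sign.

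The labels give the days on which RNA was extracted and arrays were hybridized, and the 6 Tetracycline arrays fell on extraction days 3 (1 array at each time) and 4 (2 at each time). Both extraction days also held controls, so that the change could be taken within a day. On extraction day 3, with 2 Tetracycline arrays and 4 controls, 356 genes (2.5%) were called, 1117 of the 1118 calls had the same sign and 329 of them were called. On extraction day 4, with 4 Tetracycline arrays and 2 controls, 235 genes (1.65%) were called, 1115 of the 1118 had the same sign and 223 of them were called. Both controls of extraction day 4 carry the same dated code. In the ATF4 list 12 genes were higher within day 3 and 14 within day 4, in the urea cycle list 9 and 4 were lower, in VLDL assembly and apolipoproteins 5 and 1, and in mitochondrial fatty acid oxidation 3 and 1. All 30 genes of the largest changes had the same sign on both days, and 20 and 18 of them were called. The 1118 calls and these 30 genes were chosen on the same arrays, so that the agreement in sign was largely set by the choice. Mttp changed by -1.90 on day 3 and -1.95 on day 4, Cps1 by -2.37 and -2.57, and Atf3 by 1.78 and 1.78. The change of Otc was -2.26 on day 3 and -0.74 on day 4, and that of Il6 was 0.23 and 1.77. Differences between the days were not tested. By hybridization day, 3 of the 6 Tetracycline arrays lay on day 5, which held no control, so that a fit with that day as a fixed block compares treatment with controls of the same day on the other 3 arrays alone. That fit called 823 of the 1118 genes and the fit with extraction day as a block 879.

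**Figure D4:**
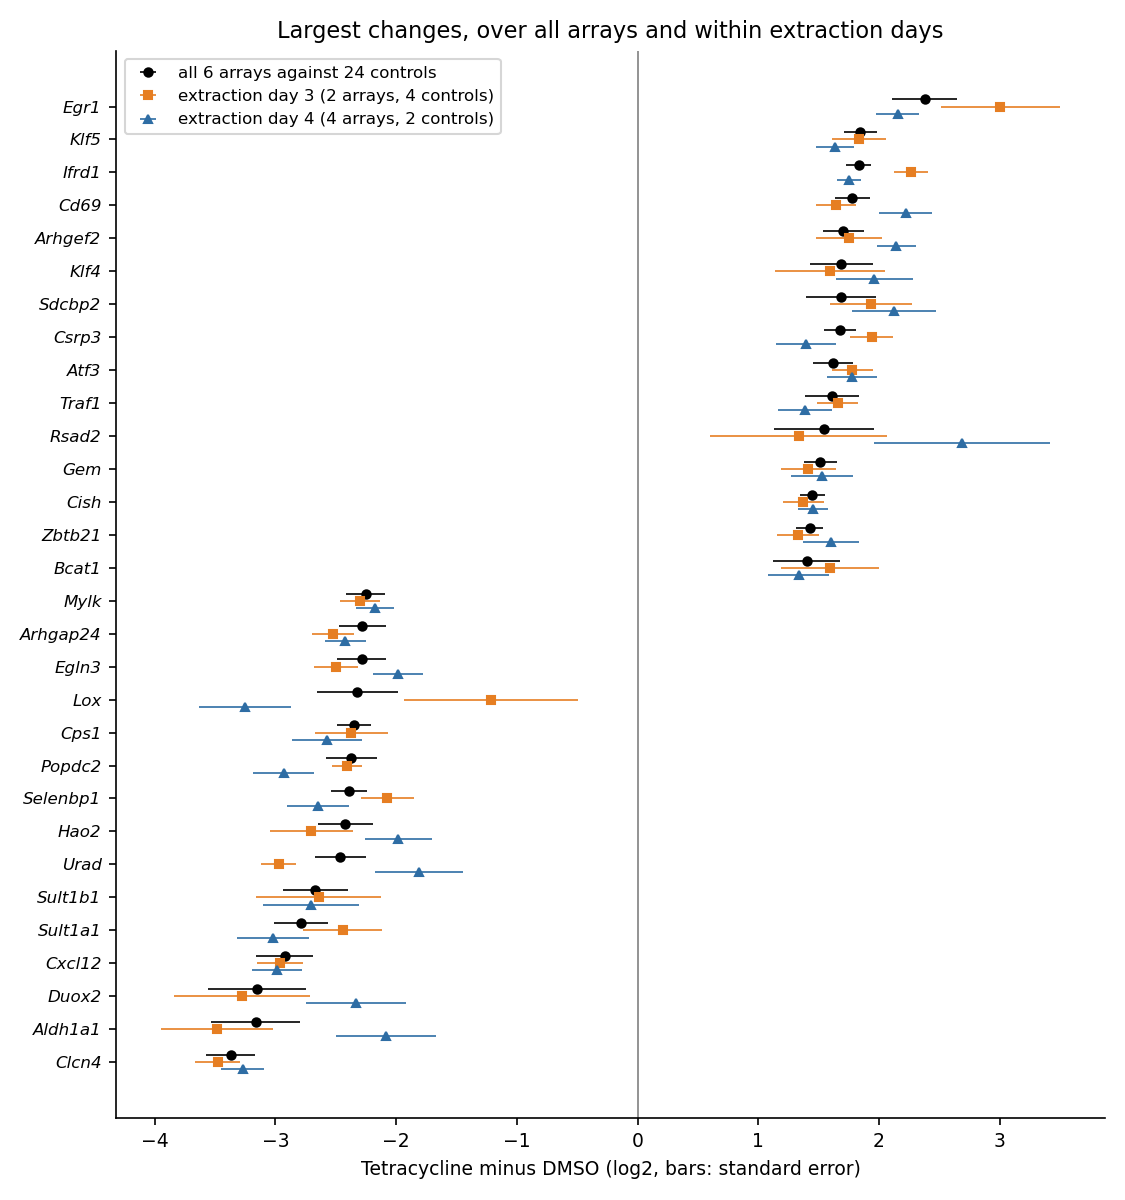
Log2 change, Tetracycline minus DMSO, of the 30 largest changes over all arrays and within extraction days 3 and 4, with standard errors as bars. Points of a gene lie on the same side of 0 on both days for all 30 genes, which were chosen on these same arrays.

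Single arrays decided some of the calls named here. Without the Tetracycline array of 1 d and extraction day 4 with replicate number 1, the calls of Lyz2 (log2 -0.56), Nsdhl (-0.57), Vim (-1.21, adjusted p = 0.0105), Rsad2, an interferon-induced antiviral protein (1.19, against 1.54 with all arrays), and Cxcl10 (-0.73) were lost. The calls of Cxcl10 and Mdm2 were lost without the 1 d array of extraction day 3 (-0.84 and 0.57), and those of Cars2 and Rsad2 without the 0.67 d array of extraction day 4 with replicate number 1 (-0.56 and 1.31). Tagln and Ccl20 each lost their call without any of 3 Tetracycline arrays, Tagln with log2 from -1.62 to -1.54 and Ccl20, a chemokine, with log2 from -0.95 to -0.84 (-1.01 with all arrays). Gsta3, a glutathione transferase called at -1.44, lost its call without any of 4 (-1.34 to -1.24), and its change within extraction day 4 was 0.28. Kdr lost its call without any of the 6 (-1.19 to -1.09), Cd14 without 1 Tetracycline array or any of 4 controls (0.57 to 0.58), and Nqo1 in 26 of the 30 fits that left out 1 array (-0.84 to -0.72). The direction of change of these genes was the same in each fit that left out 1 array.

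Of 141 named calls, 25 were lost with hybridization day as a fixed block and 22 with extraction day, with the direction of change kept in each. Lost with both were Cars2, Fst, Inhbe, G0s2, Pck1, A2m, Nqo1, Cdkn1a, Tagln, Vim, Ccl20, Cxcl10, Cd14, Kdr and Cyp4a3. Of these, A2m moved most in the fit with hybridization day (log2 -0.52, against -1.53 without a block). Lost with hybridization day alone were Rsad2 (1.35), Trap1 (-0.51), Dnajb9 (0.69), Nsdhl (-0.58), Fdps (0.58), Cyp1a1, a P450 induced by aromatic hydrocarbons (-1.51), Slc30a1 (0.66), Il6 (0.94), Ptgs2 (1.35) and Tubb3, a neuronal tubulin (0.74). Lost with extraction day alone were Thrsp (-0.94), Agpat3 (-0.51), Msmo1 (0.58), Slc10a1 (-1.25), Gsta3 (-0.98), Apoa1 (-0.57) and Slc2a2 (-0.53).

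Kanamycin, Valproic Acid and Amiodarone were set beside Tetracycline, each with 6 arrays at the same times and at its own dose, so that dose and compound cannot be told apart. Kanamycin, an antibiotic that also binds the bacterial ribosome but enters mammalian cells poorly, was given at 6584 uM and shares all 24 controls with Tetracycline. With Kanamycin 3 genes were called higher (0.0211%) and 0 lower (0%), and Tetracycline differed from it in 992 genes, 327 higher (2.3%) and 665 lower (4.68%). Valproic Acid, a drug known for microvesicular steatosis, at 1000 uM changed 788 genes on the higher side (5.54%) and 424 on the lower (2.98%) against its own controls, and Tetracycline differed from it in 1046 genes on the higher side (7.36%) and 1541 on the lower (10.8%). Amiodarone, a drug known for lipid accumulation in liver, at 37.04 uM changed 262 genes on the higher side (1.84%) and 292 on the lower (2.05%), and Tetracycline exceeded it in 143 genes (1.01%) and was below it in 472 (3.32%). Valproic Acid and Amiodarone were set against the same DMSO controls, which differ from those of Tetracycline, so that their contrasts are not independent.

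In genes of fatty acid oxidation Tetracycline and Valproic Acid differed in direction. In mitochondrial fatty acid oxidation Tetracycline was below Valproic Acid in 22 of 24 genes and above it in 0, and in the PPARa list below it in 21 of 29 and above it in 0. The medians of these lists were -0.40 and -0.34 with Tetracycline and 1.17 and 1.07 with Valproic Acid, which had 18 genes higher and 0 lower than its own controls in each list. Mttp changed by log2 -1.94 with Tetracycline and by 1.42 with Valproic Acid (difference log2 -3.36 ± 0.21, adjusted p = 1.52e-17). Ehhadh changed by -0.59 with Tetracycline and 4.97 with Valproic Acid (difference log2 -5.55 ± 0.33, adjusted p = 2.04e-18), and Cpt1a by -0.35 and 2.18 (difference log2 -2.53 ± 0.22, adjusted p = 3.02e-13). Plin2, not called with Tetracycline, changed by 1.03 with Valproic Acid (difference log2 -0.78 ± 0.10, adjusted p = 3.82e-09). Bdh1 was lower with Tetracycline than with Valproic Acid as well, at -2.10 with Tetracycline and -0.59 with Valproic Acid (difference log2 -1.50 ± 0.28, adjusted p = 2.12e-05).

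Tetracycline and Amiodarone both raised ATF4 genes, and Tetracycline was below Amiodarone in part of the glycolysis, hypoxia and sterol genes. The ATF4 list had 24 of 41 genes higher with Tetracycline (median 0.67) and 17 with Amiodarone (median 0.57), and Tetracycline was above Amiodarone in 3 and below it in 3, beside 1.01% and 3.32% of all genes. Asns changed by 1.01 with Tetracycline and 1.06 with Amiodarone, a difference whose 95% confidence interval was -0.35 to 0.26. Ddit3 changed by 1.26 and 1.04 (interval of the difference -0.58 to 1.03), and Slc7a1 by 1.30 and 1.11 (interval -0.13 to 0.51). Atf3 was higher with Tetracycline (difference log2 0.88 ± 0.22, adjusted p = 0.00253). Of the sterol genes Tetracycline was below Amiodarone in 11 of 21, and 12 were higher with Amiodarone than in its own controls. In glycolysis and hypoxia Tetracycline was below Amiodarone in 18 of 30 genes, and Amiodarone had 9 higher and 0 lower against its own controls. Egln3 changed by -2.28 with Tetracycline and 0.23 with Amiodarone (difference log2 -2.52 ± 0.29, adjusted p = 1.40e-08). Mttp changed by -1.94 with Tetracycline and -0.64 with Amiodarone (difference log2 -1.30 ± 0.21, adjusted p = 1.58e-05), and Baat by -2.22 and -2.32 (interval of the difference -0.52 to 0.73).

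No gene of the 39 lists was called with Kanamycin. Mttp changed by log2 -1.94 with Tetracycline and 0.05 with Kanamycin, Cps1 by -2.35 and 0.02, Asns by 1.01 and -0.16, and Ddit3 by 1.26 and -0.29. Tetracycline differed from Kanamycin in each of these 4 genes, in Mttp (log2 -1.99 ± 0.20, adjusted p = 4.49e-09), Cps1 (log2 -2.38 ± 0.18, adjusted p = 8.53e-12), Asns (log2 1.18 ± 0.15, adjusted p = 1.89e-07) and Ddit3 (log2 1.55 ± 0.29, adjusted p = 9.84e-05).

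**Figure D5:**
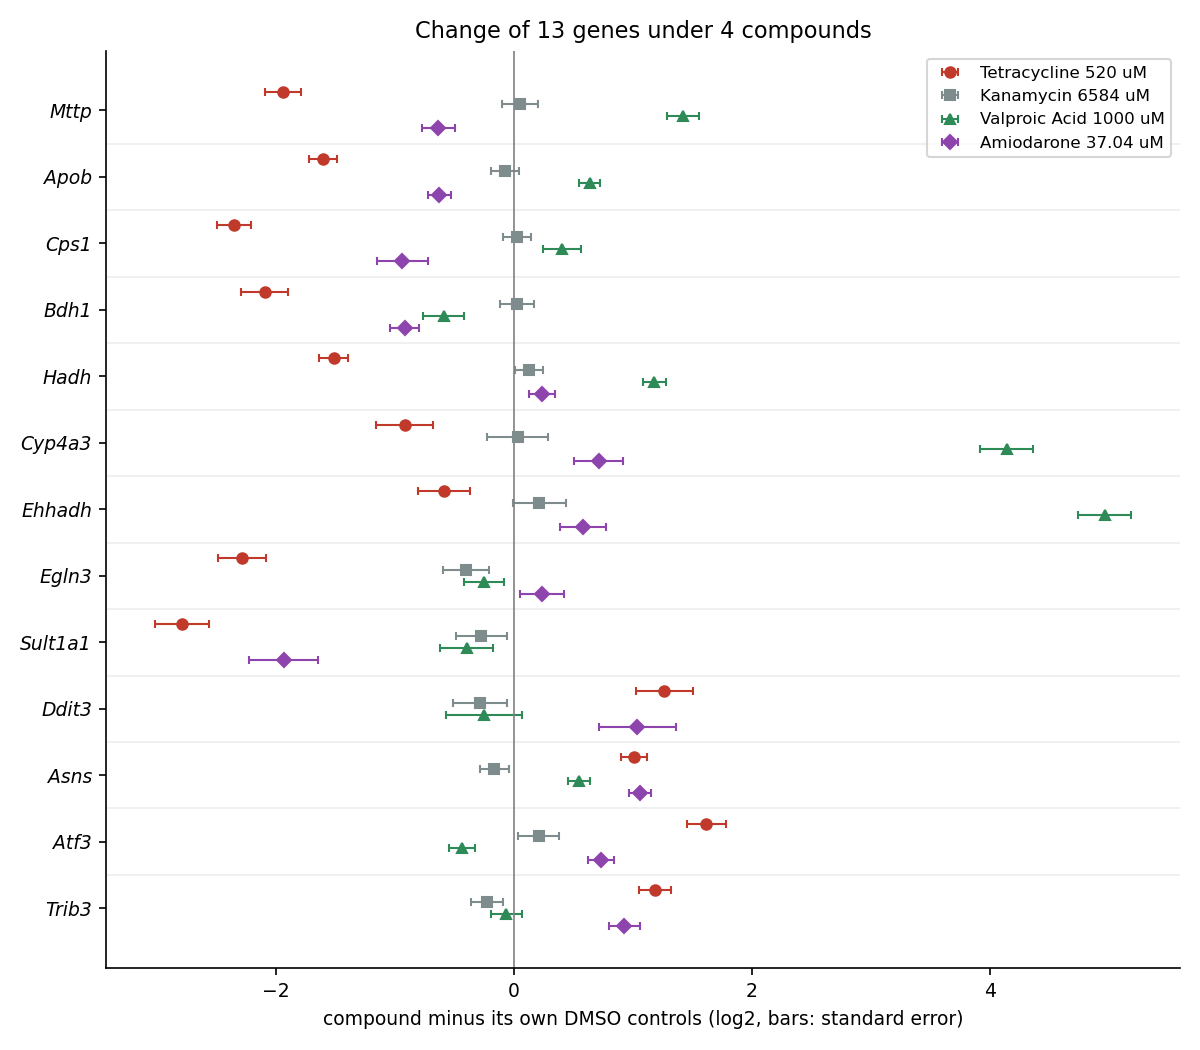
Log2 change of 13 genes, each compound minus its own DMSO controls, with standard errors as bars, for Tetracycline, Kanamycin, Valproic Acid and Amiodarone. Ehhadh lies at -0.59 with Tetracycline and 4.97 with Valproic Acid, and Egln3 at -2.28 with Tetracycline and 0.23 with Amiodarone.

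Markers of other cell types were read beside these results. Summed on the linear scale, the 14 hepatocyte markers came to 61000 to 84500 units on the Tetracycline arrays and 70500 to 90300 on the controls. Kupffer cell markers (11 genes, the macrophages of the liver) summed to 2610 to 4260 with Tetracycline and 2680 to 4630 in controls, endothelial markers (10 genes) to 279 to 553 and 328 to 1280, stellate cell markers (11 genes) to 653 to 1060 and 622 to 1600, and cholangiocyte markers (7 genes) to 337 to 611 and 409 to 1010. Calls among them were Cd14 (0.61) and Lyz2 (-0.68) for Kupffer cells and Kdr (-1.14) for endothelial cells, whose second probe set gave 0.07, with 0 for stellate cells and 0 for cholangiocytes. Among hepatocyte markers Cps1, Arg1 and Apoa1 were lower and Cebpa higher (0.68). The part of these markers in the falls of matrix and endothelial genes was not tested. Lox, Vim (-1.36), Tagln (-1.67) and Myl9 (-1.58), genes of matrix and contractile fibres, were lower. Of 29 cytoskeleton and matrix genes 5 were lower and 0 higher (median -0.13), beside 5.28% of all genes lower. The count of lower genes was 2 within the 1 d arrays, with the smaller control set or with either day as a fixed block.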

How the data were processed

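RNA of rat hepatocyte cultures was hybridized to Affymetrix rat expression arrays, 1 sample per array, as polyadenylated RNA with a biotin label. The values analysed were the log2 values per probe set that the authors deposited. They had been made with RMA per the labels, that is background-corrected, quantile-normalized and summarized, and the version of RMA is not given in the sources used here. RMA brings all arrays to a like distribution, so that a shift of most transcripts in 1 direction would not be seen, and RMA compresses the changes of dim probe sets. The study's methods name frma for the whole compound collection, and which of these programs made the deposited values was not settled. No raw intensity was used.

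Of 31099 probe sets 20832 had 1 gene symbol in the platform annotation, 436 had several and 9831 had none. Symbols of 20827 probe sets were updated through RefSeq, and the probe set with the highest mean stood for each of 14214 genes, 4527 of which had several. Array medians of the 30 arrays lay between 5.52 and 5.62. The median correlation of an array with the other 29 was 0.980 to 0.9845 for Tetracycline arrays and 0.9857 to 0.9919 for controls. The number of arrays limits the precision.

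Groups were taken from the compound, dose, time and description in the labels. Models were fitted with limma 3.58.1 in R 4.3.3 (data.table, version 1.17.8) on all genes, with treatment and exposure time as terms. Errors after ± are standard errors of the log2 change. The contrast with Kanamycin compared treated arrays. Those with Valproic Acid and Amiodarone compared the changes from their own controls, a set that both compounds share. The models were tested on simulated data with known changes. Errors in that simulation were independent between arrays, so that it could not test the effect of shared days or dated codes. A gene is named if it was among the 15 largest called rises or falls with all 6 arrays on the same side of the mean of the controls of their time, among the first 3 written or the 4 largest calls of a gene list, or among the 5 largest in each direction of the time difference or of a contrast. Other list members were named after their values were seen, where a count or a role turned on them. The members, the 39 gene lists and the comparators were chosen with earlier results of these data known. Replicate numbers did not pair the arrays, since the Tetracycline arrays carry the number 1 on 2 arrays of each time. Alternatives covered the test, the bounds, the controls, the times, scaling, probe set choice, low values, hybridization and extraction day, replicate number and leaving out each array.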

Additional observations from a re-analysis of the deposited data

Results flagged for a closer look

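In each group of 4 to 10 arrays the highest and the lowest value of the 30 most changed genes were set against the rest of their group, and 4 of 150 groups held an array far from the others. Chance alone gives such an array in about 1 of 20 groups. Traf1 was at 7.44 on the 0.67 d control array with replicate number 8 of the larger control set, where the other 7 arrays lay between 5.17 and 6.16. Cish was at 6.56 on the 1 d control with number 3 of that set, above the other arrays at 6.2 to 6.36. Sult1a1 was at 10.6 on the 1 d control with number 4 of the smaller set, with the remaining controls at 9.46 to 9.63. Urad on the 0.67 d Tetracycline array of extraction day 4 with number 1 lay -1.24 from the control mean of its time, against -3.04 to -2.46 on the other Tetracycline arrays.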

How the results depend on the processing

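The 1118 calls numbered 681 at 0.67 d alone, 356 within extraction day 3 and 235 within extraction day 4, fits with fewer arrays. A 2-fold bound left 364 and no bound on the change gave 3840. The other settings gave 937 (smaller control set) to 1247 (1 d alone) calls, and leaving out 1 array gave 994 to 1179. Of the 1118, 823 were called with hybridization day as a fixed block and 879 with extraction day, and the share of calls that were higher became 49.3% and 40.4%. The exposure time difference, with 0 called genes in each other setting and without each Tetracycline array, had 3 with replicate number as a block.

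The contrasts gave 879 to 1091 calls for Kanamycin, 2444 to 2677 for Valproic Acid and 549 to 618 for Amiodarone without 1 array, beside 992, 2587 and 615 with all. Without controls, treated arrays alone gave 2896 and 844 for Valproic Acid and Amiodarone. The log2 change of A2m was 0.027 within extraction day 3 and that of Gsta3 was 0.281 within extraction day 4, against -1.53 and -1.44 over all arrays. Of 141 named calls 90 passed at 0.67 d alone, 113 with the smaller control set, 116 with hybridization day and 119 with extraction day as a fixed block, 71 within extraction day 3 and 54 within day 4. The cause of these shifts was not tested.

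With replicate number as a block 1074 genes were called, 923 of them among the 1118, and the block gave 1063, 2636 and 729 calls for Kanamycin, Valproic Acid and Amiodarone. Treated and control arrays with the same number had residuals correlated at a mean of 0.0776, with 12 of 24 pairs over 0.1. With different numbers the mean was -0.0154, with 27 of 120 pairs over 0.1. Between controls the means were 0.175 with the same number and -0.0662 with different numbers, and between Tetracycline arrays -0.0651 and -0.314. Residuals were thus more alike on average within a number. The numbers were still not taken as pairs, since the number 1 stands on more than 1 Tetracycline array of each time. The limits are 6 treated arrays at 1 dose, an unknown source of the replicates, and dim probe sets whose changes are understated.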

Other observations

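Genes of metal handling moved in both directions. Of 18 measured members 2 were higher and 5 lower (median log2 -0.20), beside 2.59% of all genes higher and 5.28% lower. Mt2A, a metallothionein that binds zinc and copper (0.92), and Slc30a1, the zinc exporter of the plasma membrane (0.78, with the call lost with hybridization day as a block), were higher with Tetracycline than in the controls. The call of Mt2A was lost with the smaller control set, at 0.67 d alone and within extraction day 3. Mt1, the other metallothionein, changed by 0.16 and was not called. The zinc importers Slc39a4 (-1.07), Slc39a14 (-0.98) and Slc39a10 (-0.93), the manganese exporter Slc30a10 (-1.17) and the iron exporter Slc40a1 (-0.98) were lower. In the tricarboxylic acid cycle 1 of 14 genes was called, beside 7.87% of all genes. This was Idh2, the mitochondrial NADP-dependent isocitrate dehydrogenase, which was lower (-1.01), and the median of the list was -0.12.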
